A study of Mus musculus with 9 samples.

Results

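The comparison described here sets mast cells pretreated with taxinine and then given antigen against mast cells given the same antigen alone. It rests on 6 of the 9 samples of the series, 3 in each group, and on all 15109 genes of the deposited count table, and the 3 untreated samples were left out. The cells were bone marrow-derived mast cells (BMMC) of C57BL/6 wild-type mice, grown for at least 4 weeks in medium with 20% fetal bovine serum and 30% WEHI-3 conditioned medium, which supplies interleukin 3. Cells of both groups were sensitised with IgE against the hapten dinitrophenyl (DNP) and stimulated with DNP coupled to bovine serum albumin (BSA), and the group of that name had no further agent. The Taxinine group received taxinine, a taxane diterpenoid of yew, for 1 h before the antigen. No dose, solvent, length of antigen exposure or group with taxinine alone is given, so an effect of taxinine cannot be told apart from that of a solvent. Replicates are labelled as biological, with no animal or culture named, so the p-values measure only how these samples vary, and that variation may be technical.

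Mast cells carry IgE on the high-affinity receptor FcεRI, and antigen that crosslinks it sets off Lyn and Syk kinases, calcium entry and the MAP kinase, NFAT and NF-kB pathways. Granules with histamine and proteases are released first, lipid mediators follow, and newly transcribed cytokine and chemokine genes extend the response. The title of the series names interleukin 17 and tumour necrosis factor genes of mast cells as the question.

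Of the 15109 genes, 1177 (7.79%) differed between the groups in edgeR's quasi-likelihood test at a Benjamini-Hochberg adjusted p under 0.05, and such genes are said here to have been called. In Taxinine 481 genes (3.18% of all) were higher and 696 (4.61%) were lower. Changes were small: the median absolute log2 fold change of the called genes was 0.27, 39 rose and 64 fell by at least 1.5-fold, and 11 rose and 13 fell by at least 2-fold. No value of one group reached the range of the other in 1125 of the called genes, and in 3604 genes in all, which is 23.9% of those tested. A call that held whichever of the 6 libraries was left out is said to be stable to omission, and 446 of the 1177 were, 153 higher and 293 lower. The count fell by over 1.5 times without Taxinine replicate 1 (718) or 2 (672), and the rises also without BSA replicate 3 (309). Of the calls, 40.9% were rises with the scaling used here, and 57.9% with plain library totals.

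Total counts ran from 11680348 to 14005776 in BSA and from 8975371 to 13829804 in Taxinine, so 3 counts in 1 library correspond to 0.214 to 0.334 CPM (counts scaled to library size, the unit of all levels given here). The biological coefficient of variation was 3.74%. The groups had distinct scores on principal component 1 (26% of the variance), at -19.44 to -11.9 in BSA and 6.466 to 30.17 in Taxinine, and the second, 22.4%, separated Taxinine replicate 1 (22.72) from replicate 2 (-31.27). Between the counts of 2 libraries, however, the chi-square per degree of freedom was 1.568 to 1.724 within Taxinine and 2.819 to 3.485 within BSA. By that measure the BSA libraries differed more among themselves. BSA replicate 1 held the highest level of many cytokine and chemokine genes, and their values without it are given where that moves them by over 1.5 times. All 12 mast cell markers were in the table, with summed levels of 48017 to 50294 in BSA and 47763 to 49145 in Taxinine, and Gata2 and Mitf were called lower, Mitf not without BSA replicate 1 or any 1 of the Taxinine replicates, nor with DESeq2, plain library totals or limma. No T cell, NK cell or stromal marker was in it. Macrophage markers (9 of 10 in the table) summed to 82.1 to 91.1 in BSA and 73.5 to 78.4 in Taxinine, with C1qb, C1qc, Mrc1 and Marco under 1 CPM in every library. The macrophage gene Lyz2, the basophil gene Mcpt8 and the eosinophil gene Ccr3 were the other markers called, all lower. Basophil markers summed to 1273 to 1322 in BSA and 1183 to 1202 in Taxinine, eosinophil markers (2 of 4 in the table) to 22.9 to 27.5 and 18.1 to 19.8, and of 8 neutrophil markers only Ly6g was in the table, at under 1 CPM. The part of such cells in the results was not tested. Fewer cells of a type and less RNA per cell cannot be told apart in such bulk samples.

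**Figure D1:**
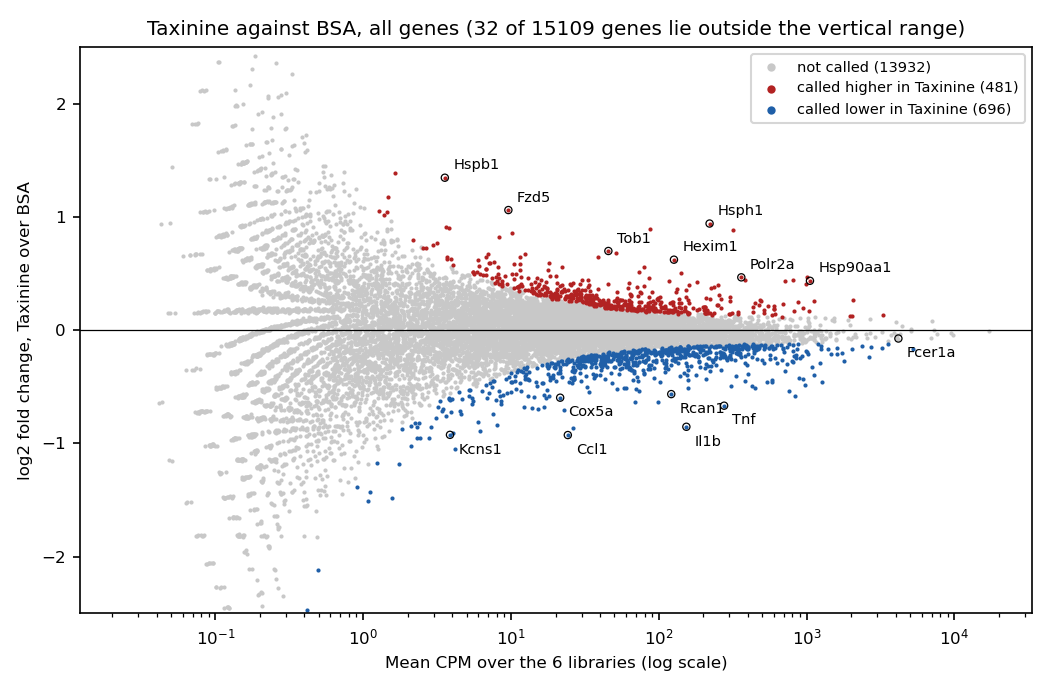
Each dot is 1 of the 15109 genes, with its mean CPM over the 6 libraries on a log axis and its log2 fold change of Taxinine over BSA, in red or blue where called. The 481 rises and 696 falls lie mostly within 1 log2 unit of 0, and 32 genes of low level fall outside the range drawn.

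Genes of the heat shock response rose together in Taxinine. Its members are chaperones, which keep client proteins folded, and their co-chaperones, and many are targets of the transcription factor HSF1. Of 44 members in the table, 14 were called higher (31.8%, against 3.18% of all genes) and 0 lower, and 13 of the 14 were stable to omission. The list's median log2 fold change was 0.09, that of all genes 0.00, so the rise was carried by a group of members and not by the list as a whole.

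Hsph1, a chaperone of the HSP110 family that also acts as a nucleotide exchange factor for HSP70 (GRCm38 chromosome 5, 149614287 to 149636376, minus strand), had 131, 163 and 159 CPM in BSA replicates 1 to 3 and 289, 302 and 278 CPM in Taxinine replicates 1 to 3. Every Taxinine library lay above every BSA library. The log2 fold change was 0.94 ± 0.05 (SE), with an adjusted p of 1.5e-24 in edgeR's quasi-likelihood test. Hspa1b, an inducible HSP70 gene (chromosome 17, 34956436 to 34959238), had 195, 241 and 229 CPM in BSA and 403, 440 and 385 in Taxinine, a log2 fold change of 0.89 ± 0.05. Its neighbour Hspa1a (34969190 to 34972156) moved by the same amount, 0.89 ± 0.06, but the sequences of this pair are nearly identical, so their reads cannot be assigned with certainty. The small heat shock gene Hspb1 (chromosome 5, 135887919 to 135889563) had the largest rise among called genes with a mean of at least 2 CPM: 1.96, 2.03 and 1.99 CPM in BSA and 5.61, 5.42 and 4.38 in Taxinine, a log2 fold change of 1.35 ± 0.21 from 23 to 27 counts in each BSA library.

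The co-chaperones and the HSP90 family moved less, with narrow spread. Dnajb1, an HSP40 that hands clients to HSP70, had 834, 835 and 881 CPM in BSA against 1162, 1226 and 1138 in Taxinine (0.47 ± 0.04). Hsp90aa1, the inducible HSP90, had 882, 916 and 887 CPM against 1208, 1218 and 1207 (0.44 ± 0.04). Bag3, a co-chaperone of HSP70 in selective autophagy, had 56.4, 68.6 and 68.5 CPM against 91.8, 97.4 and 94.3 (0.55 ± 0.06). In each of these genes the groups did not overlap, and each kept its call under all 15 alternative settings.

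Dnaja1 (0.44 ± 0.04), Hspa2 (0.56 ± 0.09) and Dnajb4 (0.33 ± 0.05) rose too. So did the mitochondrial chaperonin pair Hspd1 (0.31 ± 0.04) and Hspe1 (0.29 ± 0.05), the constitutive HSP70 Hspa8 (0.27 ± 0.04) and the HSP90 co-chaperone Chordc1 (0.24 ± 0.06). Chordc1 was not called with DESeq2, nor without BSA replicate 3 or Taxinine replicate 2. With the GC and length trend removed it moved to 0.15 and was not called. Members that missed the test included Hsp90ab1, the constitutive HSP90, at 0.10 ± 0.04 (adjusted p in edgeR's quasi-likelihood test 0.113), and the HSP70 organising co-chaperone Stip1 at 0.13 ± 0.05 (adjusted p = 0.0693). Hsf1 itself, the regulator, had a log2 fold change of -0.09 ± 0.08, the mitochondrial HSP70 Hspa9 one of -0.07 ± 0.04 and the HSP110 relative Hspa4 one of -0.07 ± 0.04, all short of the threshold. The CCT chaperonin and prefoldin genes, which fold actin and tubulin, had no call among 14 members, with a median of 0.00. Zfand2a, a heat-inducible proteasome-associated gene outside the list, had 57.8, 60.3 and 61.6 CPM in BSA and 89.0, 84.4 and 84.2 in Taxinine (0.52 ± 0.06), and was chosen after its values were seen.

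HSF1 binds repeats of the unit GAA in alternating orientation, and the promoters of the rising genes were searched for it. The 250 bases before each start used of 10592 genes of the table were taken from RefSeq (GRCm38.p6). Where a gene had more than 1 start, it counted if any of them held a match, here and in the search below. The search was for pairs of inverted units, GAANNTTC or TTCNNGAA, each of which reads the same on both strands and may overlap the other, and this form was chosen after the sequences were seen. A pair was present in the promoters of 8 of the 12 called heat shock genes that had one (66.7%), in 5 of 22 members that were not called (22.7%) and in 12.1% of all genes. Not all of the 8 are independent. The windows of Hspa1a and Hspa1b are nearly identical, each with its pair 104 bases before the start. Hspd1 and Hspe1, also among the 8, overlap at their starts. Among all genes called higher the share was 11.2%, and among those called lower 13%. The form planned beforehand was the stricter one of 3 units in a row. It was in 2 of the 12, Hspd1 and Hspe1, in 1 of the 22 not called (4.55%) and in 0.434% of all genes. As Hspd1 and Hspe1 lie on opposite strands and overlap at their starts, their windows may hold the same match. A match describes the letters of the window and is not evidence of binding. The windows of 3 leading genes are shown 5′ to 3′ with the unit pairs in capitals: Hsph1, for 1 of its start sites, at chr5:149636337-149636586 (minus strand), Hspa1b at chr17:34959239-34959488 (minus strand) and Hspb1 at chr5:135887669-135887918 (plus strand).
Hsph1: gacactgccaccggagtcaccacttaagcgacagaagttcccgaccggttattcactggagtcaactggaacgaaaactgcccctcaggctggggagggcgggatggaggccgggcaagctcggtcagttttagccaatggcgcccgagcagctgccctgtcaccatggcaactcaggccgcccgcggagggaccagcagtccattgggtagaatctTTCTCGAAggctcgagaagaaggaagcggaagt
Hspa1b: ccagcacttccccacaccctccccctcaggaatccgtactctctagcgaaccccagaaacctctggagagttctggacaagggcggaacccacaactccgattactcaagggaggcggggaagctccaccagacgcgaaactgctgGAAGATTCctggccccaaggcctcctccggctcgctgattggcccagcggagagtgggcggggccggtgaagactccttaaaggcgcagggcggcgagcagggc
Hspb1: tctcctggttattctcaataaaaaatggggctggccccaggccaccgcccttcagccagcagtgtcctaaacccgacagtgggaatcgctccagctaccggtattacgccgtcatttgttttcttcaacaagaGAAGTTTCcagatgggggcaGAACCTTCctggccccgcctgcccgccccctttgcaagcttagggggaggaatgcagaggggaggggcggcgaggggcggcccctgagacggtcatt
Hsph1 and Hspa1b each held 1 pair and Hspb1 held 2, while the windows of Bag3 and Dnajb1, which also rose, held none.

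**Figure D2:**
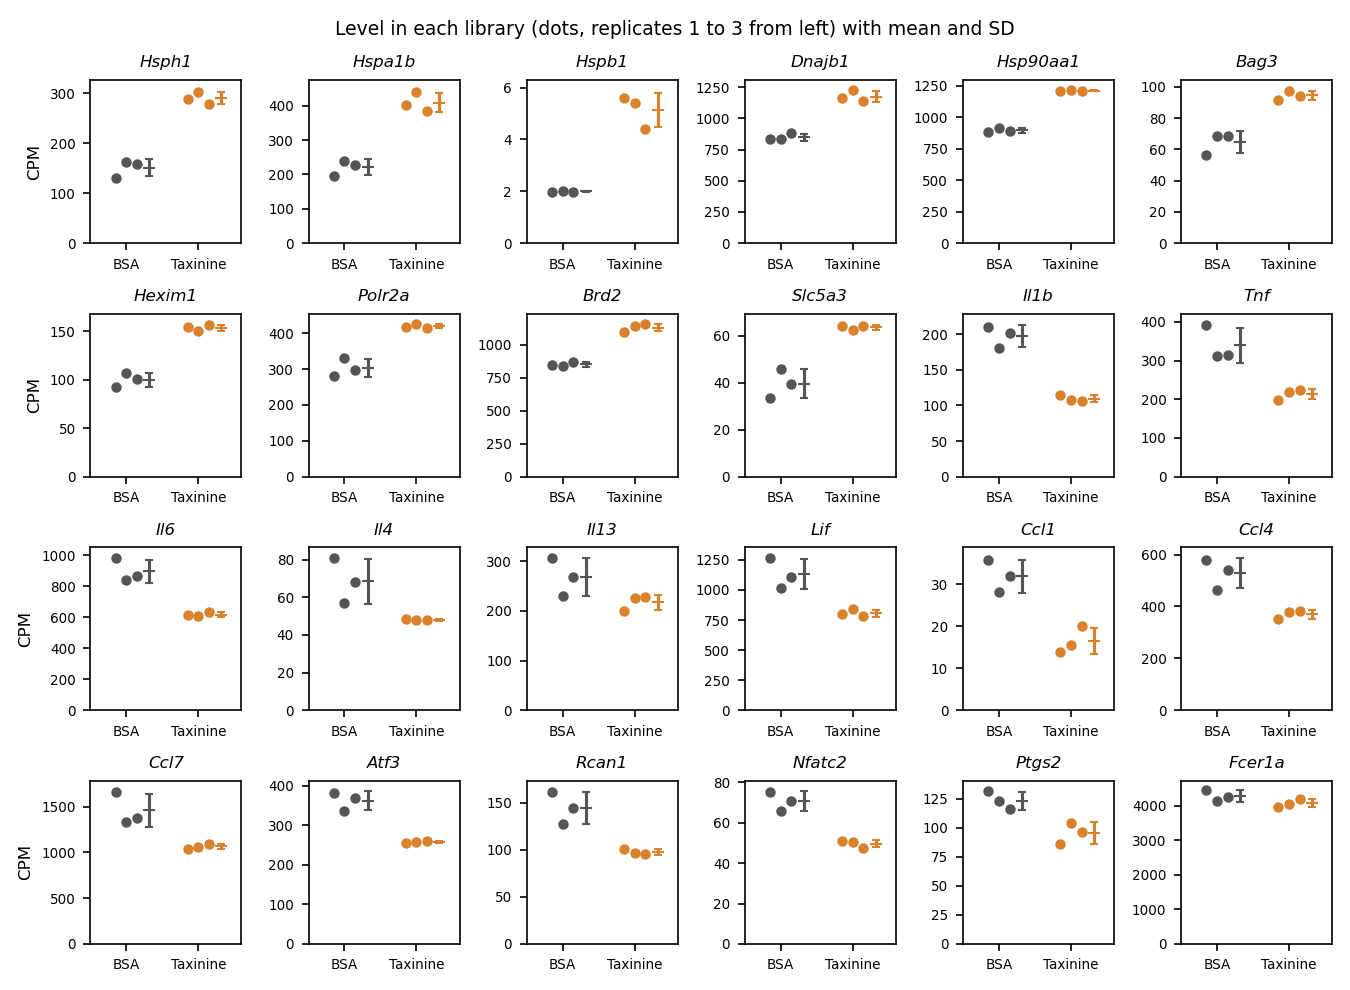
CPM of leading genes in each library, with BSA in grey and Taxinine in orange, dots for replicates 1 to 3 from left to right, and bars for the mean and SD (n = 3). The groups do not overlap in Hsph1 or Il1b and overlap in Fcer1a, which was not called.

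Hexim1 and Brd2, of transcription control, were among the rises with the smallest p-values, though larger fold changes occurred elsewhere. Hexim1, which with 7SK RNA holds the elongation factor P-TEFb inactive (chromosome 11, 103116231 to 103119725), had 92.5, 106 and 100 CPM in BSA and 154, 150 and 156 in Taxinine. The groups were far apart, at a log2 fold change of 0.62 ± 0.05 (adjusted p in edgeR's quasi-likelihood test 6.96e-16). Brd2, a bromodomain reader of acetylated histones, had 843, 838 and 872 CPM against 1097, 1142 and 1154 (0.41 ± 0.04). Polr2a, the largest subunit of RNA polymerase II, had 281, 332 and 298 CPM against 418, 426 and 414 (0.47 ± 0.04) and was chosen after its values were seen.

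The other parts of the 7SK and P-TEFb system were looked up for that reason. Its capping enzyme Mepce rose by 0.25 ± 0.05, whereas the kinase Cdk9 had a log2 fold change of 0.00 ± 0.05, its cyclins Ccnt1 and Ccnt2 had 0.13 ± 0.05 and 0.14 ± 0.06, and the 7SK protein Larp7 had -0.08 ± 0.06, none of them called. The elongation complex genes Ctr9 (0.33 ± 0.06) and Paf1 (0.25 ± 0.06) and the splicing factor genes Srsf2 (0.38 ± 0.05) and Srsf7 (0.21 ± 0.04) rose. Of the 38 members of the histone and chromatin list, 6 were called higher (15.8%; 3 without Taxinine replicate 2) and 1 lower, with a median of 0.04. They included the deacetylase Sirt1, at 75.9, 77.0 and 64.2 CPM in BSA and 96.0, 101 and 102 in Taxinine (0.46 ± 0.06), and the heterochromatin protein Cbx5 (0.18 ± 0.05), which was not called without Taxinine replicate 1 or 2. The 1 fall was Kdm6b, a histone H3 lysine demethylase induced in inflammation, at -0.25 ± 0.04.

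Among the remaining large rises, Fzd5, a Wnt receptor (chromosome 1, 64730558 to 64737751), had 5.36, 7.51 and 5.62 CPM in BSA and 14, 13.7 and 11.4 in Taxinine, a log2 fold change of 1.06 ± 0.13. Tob1, an antiproliferative adaptor of mRNA deadenylation, had 33.9, 34.9 and 35.5 CPM against 53.3, 59.5 and 56.1 (0.70 ± 0.07), and Slc5a3, the myo-inositol transporter of the osmotic response, had 33.5, 45.8 and 39.6 CPM against 64.4, 62.5 and 64.0 (0.69 ± 0.07). Neither pair of groups overlapped. The magnesium transport gene Cnnm4 (0.86 ± 0.12), the cyclin Y-like gene Ccnyl1 (0.82 ± 0.14), Csrnp2 (0.90 ± 0.20), Hyls1 (0.91 ± 0.21) and Simc1 (0.67 ± 0.11) were stable to omission too. Spata5l1 (0.79), Xndc1 (0.76) and Gnal (0.73), at 1.21 to 2.68 CPM in BSA, were not: Gnal lost its call without any 1 library, and the other two without BSA replicate 3, Taxinine replicate 1 or Taxinine replicate 3, and Spata5l1 also without BSA replicate 1. Mat2a, which makes the methyl donor S-adenosylmethionine, completed the 10 smallest p-values among rises, with 692, 721 and 656 CPM against 942, 937 and 933 (0.44 ± 0.04).

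Cytokine genes fell. Of 23 in the table, 14 were called lower in Taxinine (60.9%, against 4.61% of all genes) and 0 higher, with a median log2 fold change of -0.32, and 12 of the 14 were stable to omission. None of the falls reached 2-fold. The lists of cytokines and chemokines were chosen with earlier results of these data known.

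Il1b, the pyrogenic interleukin 1β (chromosome 2, 129364570 to 129371139), had 210, 181 and 201 CPM in BSA and 115, 108 and 106 in Taxinine. The lowest BSA library lay far above the highest Taxinine library, and the log2 fold change was -0.85 ± 0.05 (adjusted p in edgeR's quasi-likelihood test 1.29e-22). Its antisense neighbour Il1bos, which overlaps it, gave -0.59 ± 0.10, and since the strand setting of the counting is not given in the sources used here, reads of the pair cannot be told apart. Il1a, the related alarmin, had 8.84, 10.2 and 9.24 CPM against 4.84, 6.05 and 5.82 (-0.74 ± 0.14), and Il1rn, their antagonist, had 3.19, 2.93 and 2.94 CPM against 1.98, 1.90 and 1.87, which missed the threshold in edgeR's quasi-likelihood test (adjusted p = 0.0767).

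Tnf (chromosome 17, 35199381 to 35202007) had 392, 312 and 314 CPM in BSA and 198, 217 and 225 in Taxinine, with BSA replicate 1 above the other two. Its log2 fold change was -0.67 ± 0.05, and -0.55 without that library. Il6, the acute-phase cytokine (chromosome 5, 30013114 to 30019981), had 983, 840 and 867 CPM against 614, 605 and 634 (-0.54 ± 0.04). Lif, of the same receptor family, had 1266, 1020 and 1107 CPM against 802, 840 and 781 (-0.49 ± 0.05). Tnfsf8, the ligand of CD30, had 132, 119 and 112 CPM against 73.0, 77.5 and 82.3 (-0.64 ± 0.06), and Tnfsf14 fell by 0.34 (SE 0.05). The groups did not overlap in any of these genes.

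The type 2 cytokines, which drive IgE class switching and mucus production, fell as well. Il4 had 80.8, 56.8 and 68.2 CPM in BSA and 48.7, 47.7 and 48.2 in Taxinine, so the BSA libraries spread widely and the Taxinine libraries hardly at all (-0.51 ± 0.07). Il13 had 307, 230 and 268 CPM against 199, 225 and 227, where the lowest BSA and the highest Taxinine library nearly met. Its log2 fold change of -0.30 ± 0.05 was called by edgeR (adjusted p = 2.88e-05), was -0.19 without BSA replicate 1 and was not called with DESeq2 (adjusted p = 0.226; 1.7e-12 to 0.226 over all alternatives). Osm, of the interleukin 6 family, was at -0.32 ± 0.05, -0.20 without BSA replicate 1, and was not called with DESeq2 (adjusted p = 0.147; 4.49e-12 to 0.147 over all alternatives). Csf2, at 3.53 to 5.36 CPM in BSA and 1.81 to 3.23 in Taxinine (-0.71 ± 0.22), lost its call without BSA replicate 3, Taxinine replicate 1 or Taxinine replicate 2. Nor was Csf2 called with DESeq2 or in the fit over all 9 libraries. Growth factor genes with smaller falls were Tgfb1 (-0.22 ± 0.04) and Csf1 (-0.19 ± 0.04), the latter not called without Taxinine replicate 2. Members that did not pass the test included Vegfa, at 417, 403 and 381 CPM against 412, 422 and 420 (0.06 ± 0.04), and Areg, at 0.652 to 1.13 against 0.719 to 0.991.

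Of 17 chemokine genes, 9 fell (52.9%) and 0 rose, with a median log2 fold change of -0.39, and 8 of the 9 were stable to omission. Ccl1, a ligand of CCR8, had 35.9, 28.1 and 31.9 CPM in BSA and 14, 15.5 and 20.1 in Taxinine, a log2 fold change of -0.93 ± 0.09. Cxcl2, a neutrophil attractant, had 17.7, 19.9 and 19.2 CPM against 11.1, 12.1 and 11.7 (-0.70 ± 0.10). Ccl4, a macrophage inflammatory protein, had 580, 465 and 539 CPM against 350, 378 and 383 (-0.51 ± 0.05). In all of them the groups stood apart.

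The monocyte-attracting chemokines Ccl7 (-0.45 ± 0.05) and Ccl2 (-0.32 ± 0.05), and Ccl3 (-0.39 ± 0.05), Ccl9 (-0.39 ± 0.04) and Ccl6 (-0.32 ± 0.05) fell, all with highest levels in BSA replicate 1, and all called without it. Cxcl3 fell from 1.73 to 3.55 CPM in BSA to 0.719 to 1.36 in Taxinine. It lost its call with DESeq2, and without Taxinine replicate 3 or BSA replicate 1. The Cxcl3 log2 fold change of -1.18 became -0.76 without BSA replicate 1 and -0.65 by limma on the deposited log2 values. Receptors for the same ligands fell too. Ccr1 had 546, 477 and 482 CPM against 360, 352 and 359 (-0.49 ± 0.04), and Ccr2 had 89.0, 82.6 and 80.3 CPM against 55.2, 52.8 and 54.8 (-0.63 ± 0.06).

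The promoters of the falling genes were searched for a site of NF-kB, a factor that drives many of them, in the form GGG, any 2 bases, then TTTCC or TTCCC, on either strand. It was present in 5 of the 18 called cytokine and chemokine genes with a RefSeq promoter (27.8%), in 5 of 10 that were not called (50%) and in 4.02% of all genes. Of all genes called lower 6.2% held it, and of those called higher 3.13%. The windows of Il6 (chr5:30012864-30013113, plus strand) and Cxcl2 (chr5:90903649-90903898, plus strand) are shown with the site in capitals, as examples of falling genes that hold it.
Il6: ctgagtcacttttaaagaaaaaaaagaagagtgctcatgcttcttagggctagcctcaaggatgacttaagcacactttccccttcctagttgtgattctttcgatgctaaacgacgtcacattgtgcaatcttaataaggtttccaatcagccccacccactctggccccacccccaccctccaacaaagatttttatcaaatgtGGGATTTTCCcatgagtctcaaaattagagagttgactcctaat
Cxcl2: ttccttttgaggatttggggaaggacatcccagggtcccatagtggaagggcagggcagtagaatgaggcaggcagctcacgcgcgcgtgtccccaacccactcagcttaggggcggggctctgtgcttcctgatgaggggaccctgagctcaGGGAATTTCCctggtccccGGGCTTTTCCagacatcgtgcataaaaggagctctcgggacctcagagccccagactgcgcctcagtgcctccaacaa
Il6 held 1 site and Cxcl2 held 2, while the windows of Tnf and Il1b, which fell more than Il6, held none in this form.

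Because the series is about the interleukin 17 and tumour necrosis factor pathways, the 108 genes of both lists (57 and 83 in the table, 32 shared) were ordered by role, a grouping made after their values were seen. Of them 25 were called lower and 2 higher. In the interleukin 17 list 10 of 17 falls were stable to omission, and in the tumour necrosis factor list 9 of 18. Secreted products and effectors held 16 of the 25 falls among 28 genes, with a median log2 fold change of -0.40. They were followed by transcription factors and RNA regulators, with 6 lower and 1 higher of 20 and a median of -0.11. Receptors and adaptors had 2 lower and 1 higher of 31, with a median of 0.02, and kinases had 1 lower of 29, with a median of 0.01. The difference between these roles was not tested.

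The receptors at the head of both pathways did not pass the test. Il17ra, the shared receptor subunit for interleukin 17, had 147, 161 and 153 CPM in BSA and 164, 167 and 158 in Taxinine (0.08 ± 0.05), and its adaptor Traf3ip2 had 2.93 to 3.63 CPM against 2.73 to 3.63. Tnfrsf1b, the second receptor for tumour necrosis factor, had 111, 125 and 123 CPM against 112, 112 and 119 (-0.07 ± 0.05), and Tnfrsf1a stayed at or below 0.452 CPM, near the counting limit. Called members in the middle of the pathways were the adaptor Traf1 (-0.38 ± 0.09), not called without Taxinine replicate 1, the ubiquitin editor Tnfaip3 (-0.15 ± 0.04), and the kinase Map3k8, which feeds both MAP kinase and NF-kB signals, at 133, 116 and 119 CPM against 100, 95.1 and 96.6 (-0.33 ± 0.05). The 2 rises were Hsp90aa1, already described, and Jun.

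NF-kB targets and regulators had 12 of 27 members lower (44.4%) and 0 higher, with a median of -0.15. Of the 12, 3 were stable to omission, and 4 were called without Taxinine replicate 1. Nfkbid, an atypical inhibitor of the pathway, had 925, 840 and 857 CPM in BSA and 707, 736 and 723 in Taxinine (-0.28 ± 0.04). Tnip3, an inhibitor that binds A20, had 41.1, 43.9 and 42.2 CPM against 31.7, 33.1 and 32 (-0.40 ± 0.07). Relb, a subunit of the alternative pathway, fell by 0.26 (SE 0.06) and lost its call without Taxinine replicate 1.

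Genes of the signalling chain from the IgE receptor had 11 of 41 members lower (26.8%) and 0 higher, with a median of -0.11, and 5 were stable to omission. The count was 7, 7 and 6 without Taxinine replicates 1, 2 and 3. The receptor subunits themselves were not called: Fcer1a had 4469, 4127 and 4251 CPM against 3970, 4044 and 4194 (-0.07 ± 0.04), Ms4a2 was at -0.08 ± 0.04 and Fcer1g at -0.13 ± 0.04 (adjusted p by edgeR 0.063). Calls lay further down. Rcan1, a calcineurin inhibitor and NFAT target, had 162, 127 and 145 CPM against 101, 96.9 and 95.8 (-0.56 ± 0.06), and Nfatc2 had 75.5, 65.7 and 70.7 CPM against 50.9, 50.5 and 47.7 (-0.51 ± 0.06). In both genes no library of one group reached the other.

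Nfatc1 (-0.35 ± 0.04), the Tec kinase gene Tec (-0.31 ± 0.06) and the adaptor Lcp2, known as SLP-76 (-0.19 ± 0.04), fell as well and were stable to omission. In the calcium and NFAT list 4 of 25 were lower (16%), among them Orai2, a subunit of the store-operated calcium channel (-0.20 ± 0.05). Orai2 was not called with DESeq2, nor without BSA replicate 3, Taxinine replicate 1 or Taxinine replicate 3. Ion channels had 9 of 27 lower (33.3%) and 1 higher, with 3 falls stable to omission and 5 falls called without Taxinine replicate 2 or 3. Kcnn4, the calcium-activated potassium channel KCa3.1 that sustains calcium entry in mast cells, had 115, 111 and 128 CPM against 85.5, 81.5 and 89.5 (-0.46 ± 0.05). Kcns1, a modulatory potassium channel subunit, had 6.01, 4.35 and 4.92 CPM against 2.53, 1.90 and 3.45 (-0.92 ± 0.20). The 1 rise was Trpm7, a magnesium and calcium channel with a kinase domain (0.20 ± 0.05), not called without BSA replicate 3 and at 0.13 with the GC and length trend removed.

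Cyclic AMP opposes mast cell secretion. Its list had 3 of 29 lower (10.3%, against 4.61% of all genes) and 1 higher (3.45%, against 3.18%). Rapgef3, the cyclic AMP sensor EPAC1, had 5.58, 4.65 and 5.53 CPM in BSA and 3.08, 3.07 and 2.37 in Taxinine (-0.91 ± 0.19). The adenosine receptor genes Adora2a, at 82.4, 81.3 and 80.9 CPM against 57.0, 63.7 and 62.2 (-0.41 ± 0.06), and Adora2b (-0.21 ± 0.05) were the other falls, and all 3 were stable to omission. The rise, of the coactivator Crebbp (0.17 ± 0.06), was lost without BSA replicate 1 or Taxinine replicate 1 or 2.

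Immediate early genes, the transcription factors switched on within minutes of a stimulus, went both ways: 14 of 35 were lower (40%) and 3 higher (8.57%), with a median of -0.08. The rises numbered 5 without BSA replicate 1, and also with plain library totals, limma, the replicate block or the GC and length trend removed. Atf3 had 382, 336 and 369 CPM in BSA and 254, 258 and 259 in Taxinine (-0.49 ± 0.04), and the AP-1 subunits Junb, at 1121, 1019 and 1106 CPM against 821, 808 and 785 (-0.43 ± 0.04), and Jund (-0.40 ± 0.04) followed. Jun, of the same family, had 751, 771 and 801 CPM against 891, 869 and 861 and so moved the other way (0.17 ± 0.04), as did the zinc finger factors Klf10 (0.42 ± 0.06) and Klf4 (0.44 ± 0.10). Jun rose under each scaling tried. The nuclear receptor Nr4a1 (-0.28 ± 0.04) and Egr3 (-0.24 ± 0.04) fell, while Egr2 (0.11 ± 0.04), Fosb (-0.07 ± 0.04), Nr4a3 (-0.07 ± 0.04) and Myc (0.03 ± 0.06) were not called.

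Feedback genes of the MAP kinase and G protein pathways had 9 of 29 lower (31%) and 1 higher, with a median of -0.12. The regulators of G protein signalling Rgs2, at 908, 895 and 851 CPM against 731, 705 and 742 (-0.28 ± 0.04), and Rgs1 (-0.29 ± 0.04), and the Ras pathway inhibitors Spry2 (-0.28 ± 0.06) and Spred1 (-0.23 ± 0.04) were among them. Of the SOCS and STAT genes 3 rose and 3 fell of 30 (10% each, against 3.18% and 4.61% of all genes). Stat2 had 20.5, 22.3 and 21.1 CPM against 28.3, 31.0 and 26.0 (0.41 ± 0.08), and the cytokine signalling inhibitor Socs1 (-0.36 ± 0.08) and the kinase Pim3 (-0.39 ± 0.06) fell. Receptors and markers of activation at the surface had 10 of 33 lower (30.3%) and 1 higher. Beside the chemokine receptors above, Crlf2, the receptor for thymic stromal lymphopoietin, had 224, 236 and 258 CPM against 170, 188 and 175 (-0.43 ± 0.05), Il7r, which can pair with it, fell by 0.57 (SE 0.10), and the early activation marker Cd69 fell by 0.24 (SE 0.04). The rise was Il18r1, a subunit of the interleukin 18 receptor (0.35 ± 0.08).

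**Figure D3:**
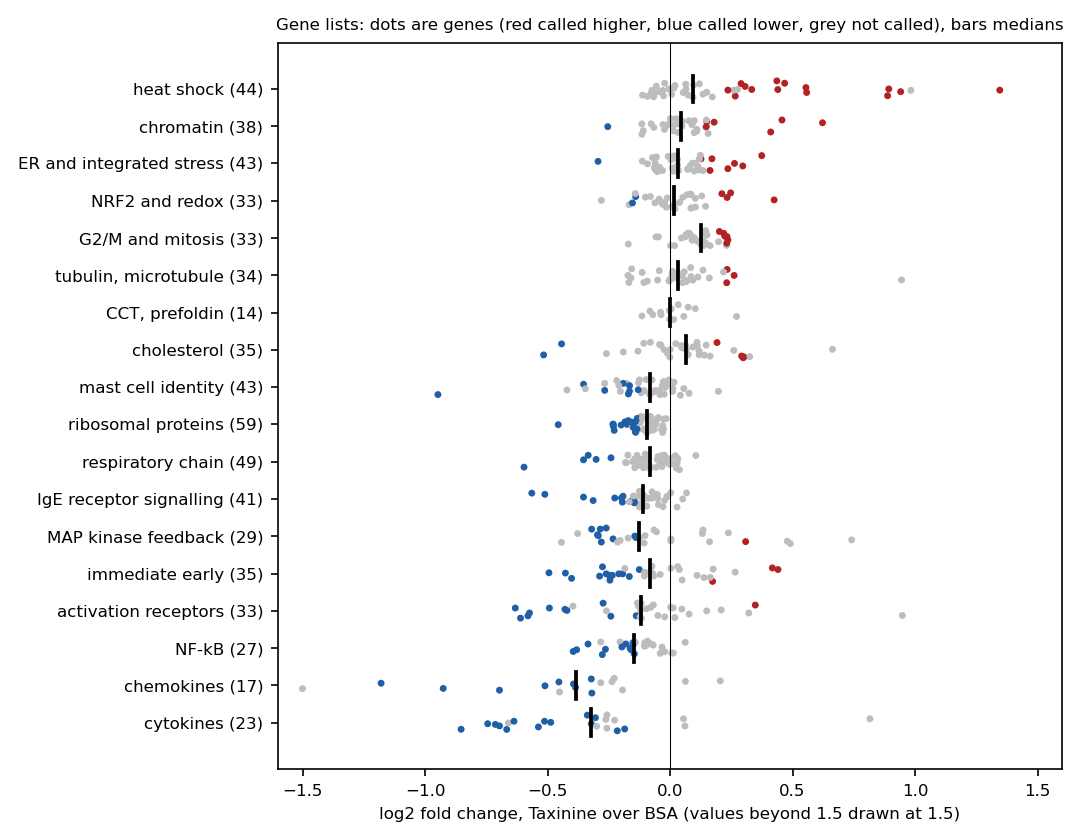
Log2 fold change of Taxinine over BSA for the members of the main gene lists, with the number of members in brackets, red and blue dots for genes called higher and lower, grey dots for the rest, and black bars for medians. Medians are lowest for chemokines (-0.39) and cytokines (-0.32), and the heat shock list, with a median of 0.09, holds the most genes called higher among the lists drawn.

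Lipid mediator genes had 3 of 17 lower (17.6%) and 0 higher, with a median of -0.06. Ptgs2, the inducible cyclooxygenase of prostaglandin synthesis, had 132, 123 and 116 CPM in BSA and 86.0, 104 and 96.9 in Taxinine (-0.37 ± 0.05). The other falls were Ptger3, a receptor for prostaglandin E (-0.22 ± 0.05), lost without Taxinine replicate 3, and the phospholipase Pla2g4a (-0.18 ± 0.06), whose groups overlapped and which was not called with DESeq2, plain library totals or limma, nor without BSA replicate 1, Taxinine replicate 1 or Taxinine replicate 2. The leukotriene enzyme Alox5 had 2179, 2177 and 2277 CPM against 2101, 2140 and 2120 and was not called (-0.06 ± 0.04).

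Genes of the stored mediators were mostly not called. Cpa3, the mast cell carboxypeptidase, had 17643, 16556 and 17081 CPM in BSA and 17146, 16582 and 17373 in Taxinine, and the groups overlapped. The log2 fold change was -0.04 ± 0.04 for the chymase Cma1, -0.03 ± 0.04 for the tryptase Tpsb2, -0.08 ± 0.04 for Hdc, which makes histamine, and -0.04 ± 0.04 for the stem cell factor receptor Kit, none of them called. In the identity list 8 of 43 were lower (18.6%) and 0 higher, with a median of -0.08 and 4 stable to omission. The falls numbered 14 without BSA replicate 2, 5 without Taxinine replicate 3 and 13 with the GC and length trend removed. The transcription factors Gata2, at 1514, 1441 and 1488 CPM against 1325, 1322 and 1315 (-0.17 ± 0.04), and Gata1 (-0.27 ± 0.06), and the protease gene Mcpt8 (-0.35 ± 0.06), a basophil marker, were among them. Slc6a4, the serotonin transporter, had 3.04, 3.83 and 3.97 CPM against 2.64, 1.81 and 1.37 (-0.95 ± 0.24), and lost its call without Taxinine replicate 3. Exocytosis genes had 4 of 32 lower (12.5%) and 1 higher (3.12%), with none stable to omission. Lysosomal genes had 2 in each direction of 48 (4.17%), near the shares of all genes, 3.18% higher and 4.61% lower.

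Other falls were outside the lists described above. The mRNA decay list had 3 of 24 higher (12.5%) and 4 lower (16.7%), with 17 above 0 and a median of 0.06. Zfp36l2, an mRNA decay factor of AU-rich transcripts, had 720, 662 and 636 CPM against 482, 513 and 490 (-0.44 ± 0.04), and Btg1 fell by 0.21 (SE 0.04), in contrast to Tob1 of the same family. The integrin Itga5 had 51.5, 57.2 and 58.6 CPM against 41.7, 38.5 and 40.5 (-0.47 ± 0.07), in a list of integrins and adhesion genes with 3 of 33 lower (9.09%) and 0 higher. Among the largest falls, Rnaset2a (-0.83 ± 0.14) and Rnaset2b (-0.89 ± 0.16) are near-identical ribonuclease genes whose reads may be split between them. Of the others, Cfap45 (-0.71) and, above, Slc6a4 were not called without Taxinine replicate 3. Gadd45gip1 (-0.95), Ccpg1os (-0.81), Rtl8c (-0.72), Chchd10 (-0.85) and Scarf2 (-0.82), with at most 6.05 CPM in any library, lost their call without 3 or 4 of the 6 libraries: Ccpg1os and Scarf2 without BSA replicate 1, Gadd45gip1, Rtl8c, Chchd10 and Scarf2 without BSA replicate 3, Gadd45gip1, Ccpg1os, Rtl8c and Chchd10 without Taxinine replicate 1, Ccpg1os, Rtl8c, Chchd10 and Scarf2 without Taxinine replicate 2, and Gadd45gip1, Chchd10 and Scarf2 without Taxinine replicate 3.

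The stress responses next to heat shock gave fewer calls. Of 43 genes of endoplasmic reticulum and integrated stress, 7 rose (16.3%) and 1 fell, with a median of 0.03, and 4 of the rises were stable to omission. The rises numbered 4 without Taxinine replicate 2 or 3 and 11 with plain library totals. Dnajb9, a chaperone of the endoplasmic reticulum, had 201, 201 and 186 CPM in BSA and 259, 255 and 248 in Taxinine (0.37 ± 0.04), and Herpud1 (0.26 ± 0.04) and the ubiquitin ligase Syvn1 (0.30 ± 0.05), both of protein degradation there, rose with it. Hspa5, the main chaperone of that compartment, moved by 0.13 ± 0.04 and was not called without BSA replicate 1 or any 1 of the Taxinine replicates. The fall was Ppp1r15a, which brings phosphatase to eIF2α, at 437, 382 and 446 CPM against 338, 344 and 350 (-0.29 ± 0.04).

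Of 33 NRF2 and redox genes 4 rose (12.1%) and 2 fell. Gclc, the limiting enzyme of glutathione synthesis, had 150, 160 and 156 CPM against 201, 208 and 216 (0.43 ± 0.05), and Srxn1 (0.23 ± 0.04), Hmox1 (0.21 ± 0.04) and Osgin1 (0.25 ± 0.06) were the other rises. Proteasome and ubiquitin genes had 1 lower of 41 (2.44%). Xenobiotic genes had 1 higher and 1 lower of 19 (5.26% each, against 3.18% and 4.61% of all genes), the latter being Ahr, the aryl hydrocarbon receptor (-0.29 ± 0.05). Among p53 targets and inhibitors of the cell cycle 7 of 29 rose (24.1%) and 3 fell. The rises included Trp53inp1 (0.36 ± 0.05) and the BH3-only gene Pmaip1 (0.26 ± 0.05). Of 23 BCL2 family and apoptosis genes 2 rose, Pmaip1 again among them, and 2 fell, with a median of -0.03. These were 8.7% in each direction, against 3.18% higher and 4.61% lower of all genes. The antiapoptotic gene Bcl2l1 was among the falls, by 0.39 (SE 0.07).

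Taxanes of clinical use bind microtubules, so tubulin and mitosis genes were looked at. Of 34 tubulin and microtubule genes 3 rose (8.82%) and 0 fell, with a median of 0.03. Tubb4b had 266, 273 and 289 CPM in BSA and 318, 341 and 333 in Taxinine (0.26 ± 0.04), while Tubb5 (0.04 ± 0.04) and Tuba1b (0.09 ± 0.04) were not called. Of 33 genes of G2 and mitosis 6 rose (18.2%) and 0 fell, and 30 of the 33 had a fold change above 0, with a median of 0.13. Mki67, the proliferation marker, had 385, 451 and 393 CPM against 497, 484 and 468 (0.24 ± 0.04), and was the 1 of the 6 that was stable to omission. The rises of the list numbered 2, 1 and 3 without BSA replicate 1, Taxinine replicate 1 and Taxinine replicate 3, and 11 with plain library totals. Genes of DNA replication had 1 higher and 1 lower of 36 (2.78% each, below the shares of all genes), the rise being Slbp, which binds histone mRNA (0.43 ± 0.05).

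In metabolism, the glucose transporter Slc2a3 had 988, 1068 and 999 CPM in BSA and 798, 727 and 751 in Taxinine (-0.42 ± 0.04). Its list of 37 glycolysis and hypoxia genes had 3 higher (8.11%, against 3.18% of all genes) and 2 lower (5.41%, against 4.61%). Of 35 cholesterol genes 4 rose (11.4%) and 2 fell (5.71%). The falls were the sterol exporters Abcg1, at 180, 174 and 191 CPM against 134, 134 and 133 (-0.44 ± 0.05), and Abca1 (-0.52 ± 0.06). The rises included Insig1 (0.30 ± 0.08) and Stard4 (0.19 ± 0.05), of sterol regulation and transport, and none of the 4 was stable to omission. Slc38a2, an amino acid transporter induced by amino acid lack, had 567, 673 and 580 CPM against 809, 855 and 792 (0.43 ± 0.04).

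All 59 ribosomal protein genes had a log2 fold change below 0, with a median of -0.09, and 16 of them were called lower (27.1%), 6 of them stable to omission. The falls numbered 37 without BSA replicate 2, 10 without BSA replicate 3, 9 and 6 without Taxinine replicates 1 and 2, and 10 with plain library totals. Rpl13 had 647, 625 and 762 CPM in BSA and 482, 513 and 488 in Taxinine (-0.46 ± 0.05). Respiratory chain genes had 5 of 49 lower (9 without BSA replicate 2) and 0 higher, with a median of -0.08, and Cox5a, a subunit of cytochrome oxidase, had 25.0, 23.0 and 29.9 CPM against 16.4, 16.4 and 18.2 (-0.60 ± 0.09). BSA replicate 3 was the highest in both genes.

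Fold changes followed the GC content and length of the transcripts. In 5 classes of equal size of the genes with a mean of at least 2 CPM, the median log2 fold change ran from 0.045 at the lowest GC content to -0.053 at the highest, and from -0.054 for the shortest transcripts to 0.046 for the longest. The class of highest GC content held 41 rises and 238 falls, that of the lowest 157 and 84. BSA replicate 3 and Taxinine replicate 1 deviated most, by 0.068 and -0.049 in the class of highest GC content. When this trend was removed within each library, 1296 genes were called and 960 of the 1177 were among them. The medians became -0.05 for ribosomal proteins, -0.03 for the respiratory chain, 0.10 for G2 and mitosis, 0.11 for heat shock and -0.29 for cytokines, and the fold changes of Jund and Crlf2 shrank to -0.23 and -0.27. The part of GC content and length in the other results was not tested.

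**Figure D4:**
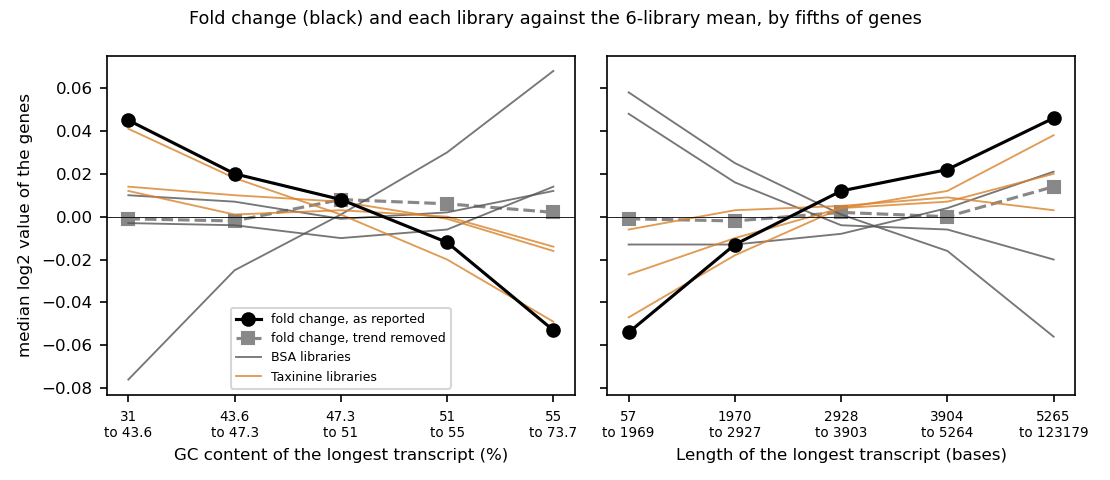
Median log2 values of genes in 5 classes of GC content (left, %) and length (right, bases) of the longest transcript, with the fold change of Taxinine over BSA in black, the same after the trend was removed as grey dashed squares, and each library against the mean of the 6 as thin lines (BSA grey, Taxinine orange). The black line falls from 0.045 to -0.053 with GC content and rises from -0.054 to 0.046 with length, and the steepest thin line is BSA replicate 3.

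The direction of the named groups did not rest on one scaling or library, while the number of calls did. Heat shock genes called higher numbered 13 to 18, cytokines called lower 11 to 15 and chemokines called lower 8 to 9 over the 15 alternatives.

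**Figure D5:**
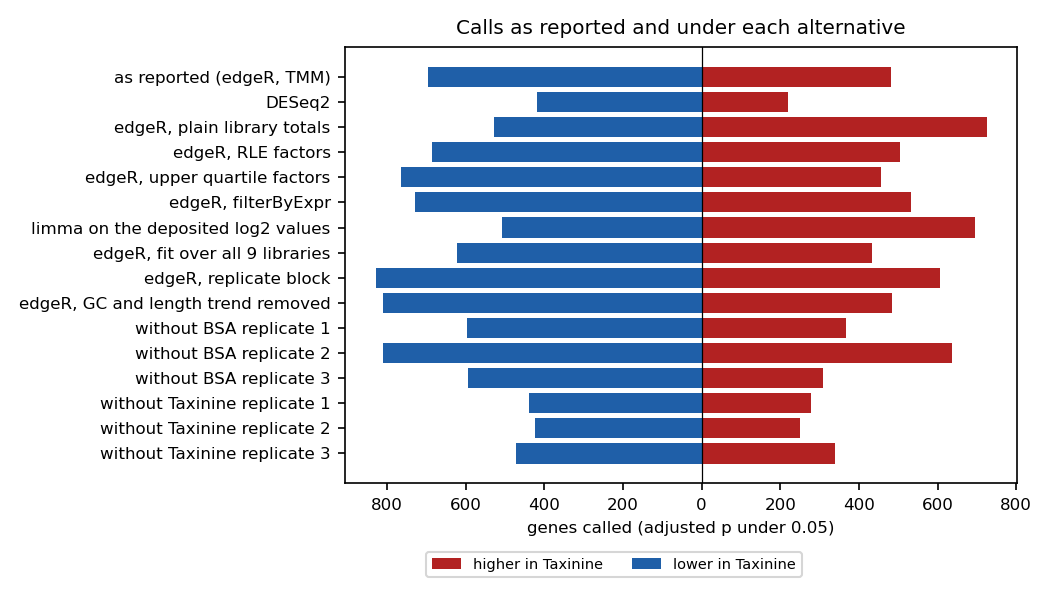
Genes called higher (red, to the right) and lower (blue, to the left) in Taxinine at an adjusted p under 0.05, as reported and under each of the 15 alternatives. Bars start at 0. DESeq2 gives 219 rises and 420 falls, and plain library totals turn the balance to 725 rises and 527 falls.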

How the data were processed

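RNA of 9 samples was sequenced from stranded TruSeq mRNA libraries, and the 6 samples of the BSA and Taxinine groups are used here. STAR 2.7.0f, limma 3.11 and the builds mm10 and GRCm38 are named per the submitters' processing notes. Neither the annotation nor the counting program is given in the sources used here, nor its strand setting. The main table holds whole-number read counts per gene as deposited, although its name speaks of normalization. The second deposited table holds log2 values, equal to log2 of plain CPM plus 1 to within 5e-05. Both list 15109 genes, the rarest with 8 reads over all 9 libraries.

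Counts were scaled by TMM and tested with edgeR 4.0.16 (quasi-likelihood, 6 libraries, R 4.3.3), with Benjamini-Hochberg adjustment over all 15109 genes and a call at an adjusted p under 0.05. Fold changes are log2, Taxinine over BSA, and the SE is the fold change over the square root of F. Alternatives were DESeq2 1.42.0, limma 3.58.1 on the deposited log2 values, other scalings, a filter on low counts, all 9 libraries, a replicate block and leaving out each library. The removal of the trend with GC content and length was added after seeing the data. Counts of 15109 genes were also simulated from the dispersions of these 6 libraries, without a trend with GC content or length. At each size, 50 genes with a mean of at least 2 CPM were changed. Of these, 50% were called at 0.3 on the log2 scale, 82% at 0.5 and 98% at 1. The 11 false calls were 6.25% of the calls. The rates for lower genes, or with such a trend, were not tested.

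Genes are named by a rule: the 15 largest rises and falls among called genes with a mean of at least 2 CPM whose groups do not overlap, predicted genes and ribosomal pseudogenes apart, the 10 smallest p-values in each direction, up to 5 called members per list and fixed mast cell genes. Beside these, members of the pathway lists that illustrate a role, and genes said to be so, were chosen after their values were seen. The comparison and the lists were chosen with earlier results of these data known. A few genes are not reported here.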

Additional observations from a re-analysis of the deposited data

How the results depend on the processing

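Against 1177 calls (481 higher, 696 lower), DESeq2 gave 639 (219 higher, 420 lower), 635 of them shared. Among the called genes picked for naming, 190 kept their call with DESeq2 and 41 lost it. Losses with DESeq2 are not listed above for every such gene. Plain library totals gave 725 higher and 527 lower. Leaving out 1 library gave 672 to 1448 calls, 249 to 637 higher and 423 to 811 lower. The cause of these moves was not tested, beyond the smaller number of libraries. All other settings stayed within 1.5 times of these reported totals. The fit with the replicate block called 1435 genes, 1175 of them shared. Correlations of deviations between same-numbered samples were -0.0466, 0.00141 and 0.0448 over 10604 genes. With 3 libraries per group, such values cannot show whether same-numbered samples share an animal or culture. No named gene that was called reversed its direction under any alternative. Counting error is largest for low genes, where 3 counts in 1 library correspond to 0.214 to 0.334 CPM.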

Other observations

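Transcription factors of blood cell development were lower in Taxinine, a group picked after its values were seen and given without a test of its own. Myb, a factor of progenitor growth, had 80.0, 75.7 and 76.5 CPM in BSA and 56.1, 54.7 and 59.6 in Taxinine (-0.44 ± 0.06). Spi1, which encodes PU.1, had 69.8, 66.4 and 75.4 CPM against 53.8, 56.2 and 56.0 (-0.35 ± 0.06), and Bcl11a had 21.4, 20.6 and 20.1 CPM against 12.6, 14.6 and 13.7 (-0.60 ± 0.10). The groups did not overlap in any of the 3. Runx1 (-0.26 ± 0.04), Ikzf1 (-0.24 ± 0.04), Nfe2 (-0.31 ± 0.06) and Zfpm1, the partner of GATA1 (-0.44 ± 0.08, and -0.29 with the GC and length trend removed), fell as well.

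Genes whose symbol is Zfp followed by a number alone, a mixed class of zinc finger genes, leaned the other way. Symbols with further letters, such as Zfp36l2 and Zfpm1, which both fell, are not in this class. Of 319 in the table, 21 were called higher (6.58%) and 8 lower. In 214 the fold change was above 0 and the median was 0.10, with 4 of the rises and 3 of the falls stable to omission of a library. The rises numbered 10 without BSA replicate 3, 8, 8 and 13 without Taxinine replicates 1, 2 and 3, 5 with DESeq2 and 32 with plain library totals. With the GC and length trend removed the median was 0.07. Some polyamine genes, also chosen after their values were seen, rose: Amd1 (0.38 ± 0.06) and Azin1 (0.23 ± 0.04) of synthesis, and Sat1 (0.26 ± 0.04) of breakdown. The pathway as a whole was not counted. The metallothionein Mt2 (0.38 ± 0.06) and the transferrin receptor Tfrc (0.34 ± 0.06) were higher too.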
